A study of Mus musculus with 6 samples.

Results

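The genes described here are 7 of the interleukin-6 (IL-6) and oncostatin M family, among 19449 genes counted in single leukocytes of the inflamed mouse spinal cord. They were taken by name as 3 ligands (Il6, Osm and Lif), 2 receptor chains (Il6ra and Il6st), the transcription factor Stat3 and its feedback inhibitor Socs3, and all 7 were found in the table. The study asked how the age of the recipient changes experimental autoimmune encephalomyelitis (EAE), an autoimmune demyelinating disease, when encephalitogenic T cells are transferred. CD4+ T cells specific for a myelin peptide (MOG) and polarized with IL-23 were taken from immunized CD45.1 C57BL/6 donors and injected into naive C57BL/6 recipients of both sexes. Recipients were young (8 to 12 weeks) or middle-aged (40 to 44 weeks), and CD45+ cells were sorted from the spinal cord on day 6 or day 10 posttransfer. All 4 groups carried the transfer, so none of the single-cell groups was free of disease. Each of the 4 single-cell libraries pooled 4 spinal cords and there was 1 library per age and day, so no difference between 2 libraries has a replicate check. A further pair of bulk libraries held sorted microglia (CD45int CD11b+) of naive mice, 1 young and 1 middle-aged.

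The cytokines of this family share a signalling chain, gp130, encoded by Il6st. IL-6 binds its own receptor chain (Il6ra) before it engages gp130, whereas oncostatin M (Osm) and leukemia inhibitory factor (Lif) bind gp130 together with a chain of their own, Osmr or Lifr. The bound receptors activate JAK kinases and STAT3, and STAT3 induces Socs3, which binds gp130 and shuts the signal off. In EAE the family is known above all through IL-6, which helps naive T cells become Th17 cells.

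The table held 38057 cells, between 8315 and 10026 per library, with median depths of 4704.5 to 6196 unique molecular identifiers (UMIs, 1 per captured transcript) per cell, and 154 barcodes occurred in more than 1 library. The 16 clusters are those the authors numbered. By their markers, clusters 3, 6 and 0 were neutrophil-like, 5 and 1 monocyte/macrophage-like, 7 dendritic cell-like, 10 microglia-like, 2 T cell-like, 9 NK cell-like and 4 B cell-like. Cluster 0 carried a neutrophil marker sum of at least 38172 CPM in every library but none of those markers led it. Cluster 8 is called by its number. All 8 microglial markers were higher in it than in the other clusters pooled (median log2 ratio 2.54), and 0 of the 10 neutrophil markers were (median -1.74). It still held neutrophil markers at 3621 to 10328 CPM, and its leading genes belonged to neither list. The paper describes microglia in 2 clusters. Below, microglia-like refers to cluster 10 only. Cluster 11, led by granule protease genes such as Prss34, Mcpt8 and Mpo and holding T cell markers too, was also left unnamed. Levels below are UMIs of a gene per 1000000 UMIs of the cluster (CPM), in the order young day 6, middle-aged day 6, young day 10 and middle-aged day 10. Brackets hold 95% intervals that cover counting error only, exact Poisson for levels, exact binomial for shares of cells and exact conditional binomial for log2 ratios. Levels of different genes are not set against each other.

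The genes lie on 4 chromosomes (GRCm38, GENCODE vM21). Il6 spans 30013114 to 30019981 of chromosome 5 (plus strand). Osm (4236420 to 4241026) and Lif (4257557 to 4272514) are neighbours on the plus strand of chromosome 11, with 16530 bases between them. Stat3 (100885098 to 100939540) and Socs3 (117966079 to 117970047) lie on the minus strand of the same chromosome. Il6ra lies on chromosome 3 (89864059 to 89913196, minus strand) and Il6st on chromosome 13 (112464070 to 112510086, plus strand). Proximal promoters of 6 of the 7 genes were found among RefSeq sequences (GRCm38.p6), each taken as the 250 bases before the RefSeq start. There is no entry for Osm. The 3 windows that held a searched motif are printed below. Levels of Il6 and Socs3 between the days and of Lif between the ages are given further on, where no member was called for age. Capitals mark matches to the AP-1 motif TGANTCA, the STAT motif TTCNNNGAA or the NF-kB motif (the run of capitals nearest the start in Il6, with its base 5 left free), searched on both strands (the first 2 read the same on both).
Il6, chr5:30012864-30013113, plus strand: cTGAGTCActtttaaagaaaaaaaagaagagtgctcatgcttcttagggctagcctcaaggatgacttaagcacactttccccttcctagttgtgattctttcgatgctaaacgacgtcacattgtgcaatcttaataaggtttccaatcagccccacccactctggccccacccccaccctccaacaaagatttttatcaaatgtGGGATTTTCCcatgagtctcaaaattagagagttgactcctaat
Lif, chr11:4257318-4257567, plus strand: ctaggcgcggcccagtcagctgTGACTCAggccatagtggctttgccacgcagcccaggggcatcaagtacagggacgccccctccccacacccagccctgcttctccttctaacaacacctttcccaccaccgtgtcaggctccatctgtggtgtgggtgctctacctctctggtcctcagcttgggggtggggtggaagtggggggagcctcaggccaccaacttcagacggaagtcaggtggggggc
Socs3, chr11:117969367-117969616, minus strand: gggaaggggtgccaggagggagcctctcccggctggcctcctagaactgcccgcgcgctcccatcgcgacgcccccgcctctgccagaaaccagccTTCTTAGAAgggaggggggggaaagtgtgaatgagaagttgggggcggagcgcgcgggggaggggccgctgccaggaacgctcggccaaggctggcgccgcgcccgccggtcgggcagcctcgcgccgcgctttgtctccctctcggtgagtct
The Il6 window had an AP-1 match starting 249 bases and an NF-kB match 44 bases before the start. In the Lif window an AP-1 match began at 228 bases, and in the Socs3 window a STAT match at 154 bases. These distances are to the RefSeq start. The Socs3 window lies inside the GENCODE span of the gene given above, downstream of its GENCODE start. The last bases of the Lif window also lie past the GENCODE start of Lif. Of 32851 mouse promoter windows of this length, 6.75% held the AP-1 letters, 0.356% the NF-kB letters and 7.02% the STAT letters. The windows of Il6ra, Il6st and Stat3 held none of the 3. A match of letters is a description and no site of binding was measured.

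Among the ligands, Il6 was read mainly from monocyte/macrophage-like cells. In cluster 5 its level was 68.2, 49.9, 43.7 and 15.5 CPM, and in the far larger cluster 1 it was 42.4, 49.8, 15.4 and 16.1 CPM. In cluster 1 both day 6 libraries lay above both day 10 libraries, and the young and middle-aged libraries of day 10 were close to each other. Cluster 11 (44.5, 48.3, 20.98 and 22.4 CPM) and the dendritic cell-like cluster 7 (18.9, 24.1, 7.45 and 18.2 CPM) followed. The Il6 UMIs of cluster 11 came from only 17, 8, 22 and 13 cells. The ranges of clusters 5, 11, 1 and 7 each overlapped that of the next, so their order is not fixed, but cluster 7 did not overlap the microglia-like cluster 10 (0.57 to 3.49 CPM). Cluster 1 alone gave 55.6%, 72.2%, 54.3% and 65.7% of all Il6 UMIs in the 4 libraries. No Il6 UMI was found among 259, 96, 243 and 181 NK cell-like cells, which allows shares of cells with a captured UMI of up to 1.16%, 3.13%, 1.23% and 1.66% and does not limit the cells that express the gene.

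Few cells held the transcript. In cluster 1 an Il6 UMI was found in 16.6%, 19.0%, 6.79% and 5.86% of cells, at median depths of 8311 to 10094.5 UMIs. The B cell-like cells, taken as a low reference although B cells can make IL-6, had one in 0.339%, 0%, 0.184% and 0.296% at median depths of 2402 to 2997 UMIs. Shares were also taken with cells thinned to 2000 UMIs each, and here and below cells with fewer UMIs were then left out. In cluster 1 the thinned shares were 5.73%, 7.12%, 2.09% and 2.59%, again higher in both libraries of day 6, and they were 0 in B cell-like cells. The 10 cells with the most Il6 UMIs held 31.3% and 32.2% of all Il6 UMIs of cluster 1 on day 10.

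Osm was read from neutrophil-like and other myeloid cells. It stood highest in cluster 3, at 1366, 1292, 999 and 876 CPM, above the range of the neutrophil-like cluster 0 at 843, 739, 321 and 182 CPM. In cluster 3 the libraries kept within a narrow span, and a UMI of Osm was found in 69.8%, 68.6%, 71.2% and 67.4% of its cells. In cluster 0 the level was higher in both libraries of day 6 than in both of day 10, and the share of cells with a UMI went the same way (54.3%, 47.0%, 26.8% and 18.6%). The monocyte/macrophage-like clusters came with 612, 560, 259 and 248 CPM (cluster 5) and 461, 316, 107 and 118 CPM (cluster 1), so again neither library of day 10 reached a library of day 6. Microglia-like cells of cluster 10 held 288, 333, 288 and 245 CPM, with little difference between the days. T and B cell-like cells held 8.01 to 27.0 and 3.40 to 14.6 CPM. An Osm UMI was seen in 4.34% to 10.5% of T cell-like cells against 1.18% to 3.80% of B cell-like cells, taken as background. After thinning these shares were 1.53% to 3.84% and 0.73% to 2.13%, so their ranges overlapped. Cluster 1, with its many cells, gave 45.2%, 36.5%, 19.3% and 39.5% of all Osm UMIs. In the young library of day 10 the neutrophil-like cluster 6, at 648 CPM, gave more (23.2%).

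Lif was rare, with 1634 UMIs in 792 cells of all libraries. Its highest mean level was in T cell-like cells, at 9.18, 35.0, 20.4 and 14.2 CPM (65, 240, 282 and 220 UMIs). The young library of day 6 was the lowest and the middle-aged library of the same day the highest, while the day 10 libraries lay between them. The unnamed cluster 11 held 34.8, 14.4, 6.63 and 4.75 CPM and dendritic cell-like cells 11.9, 6.45, 4.26 and 1.99 CPM, both above T cell-like cells in the young library of day 6 only. In that library the level of cluster 11 came from 43 UMIs in 5 cells, and 1 of these cells held 23. T cell-like cells gave 52.2%, 61.8% and 62.0% of all Lif UMIs in the other libraries, but in that one 17.9%, less than clusters 1 (26.2%), 7 (21.8%) and 5 (18.7%). A Lif UMI was found in 2.14%, 7.92%, 5.82% and 4.38% of T cell-like cells and in 0.067% to 0.694% of the neutrophil-like cluster 0, taken as background. After thinning, the shares in T cell-like cells were 0.706%, 4.11%, 2.50% and 2.08% and the background at most 0.469%. The 10 cells with the most Lif held 67.7% of the UMIs of T cell-like cells in the young library of day 6 and 29.1% to 43.3% in the others.

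**Figure D1:**
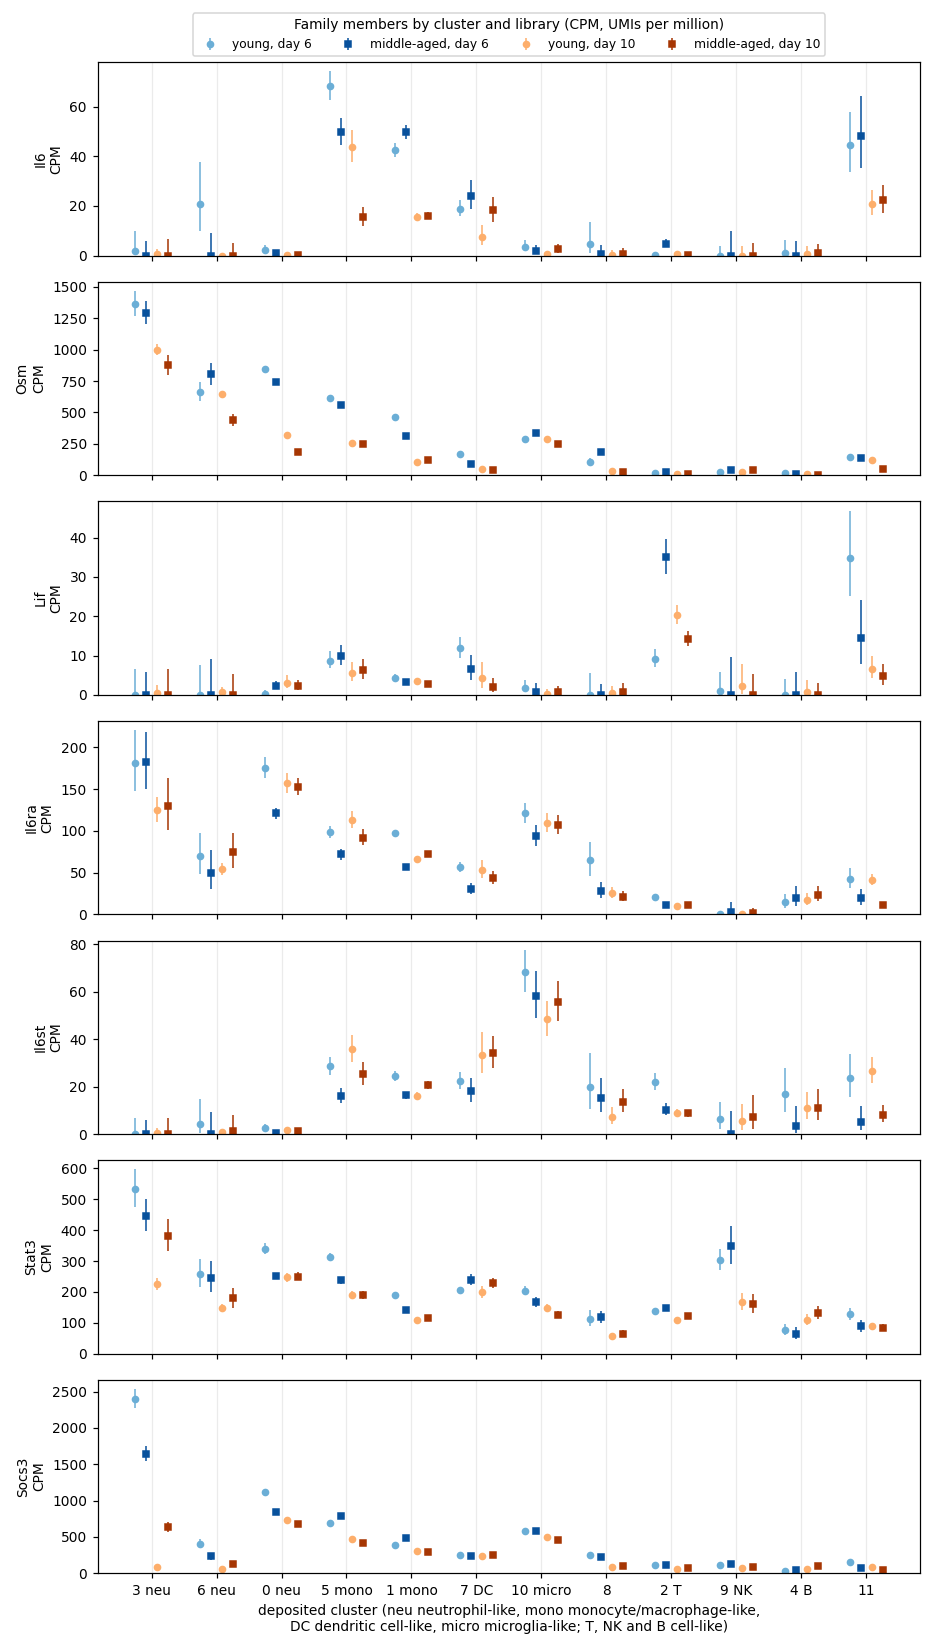
Level of each member (vertical axis, CPM, own scale per gene) in 12 of the deposited clusters (horizontal axis), with 1 point per library and bars for the exact Poisson 95% interval. Il6 was highest in clusters 5, 11 and 1, Osm in cluster 3, Lif in T cell-like cells and cluster 11, and Il6st in microglia-like cells. The Il6 and Lif UMIs of cluster 11 came from few cells. Socs3 in cluster 3 ran from 2405 CPM in the young library of day 6 to 82.0 CPM in that of day 10.

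The receptor chains were spread differently from each other. Il6ra, the chain that binds IL-6, was highest in the neutrophil-like clusters 3 (181, 182, 125 and 130 CPM) and 0 (175, 121, 157 and 153 CPM). These 2 clusters overlapped, and microglia-like cells (121, 94.0, 110 and 107 CPM) overlapped cluster 5 (98.7, 71.8, 113 and 92.0 CPM). In T cell-like cells it was 21.04, 11.4, 9.60 and 10.7 CPM, highest in the young library of day 6. NK cell-like cells, taken as background, held 0, 2.64, 0 and 1.42 CPM, and a UMI was found in at most 1.04% of them against 53.5% to 63.3% of microglia-like cells. After thinning, the share of microglia-like cells was 17.3% to 23.4% and that of NK cell-like cells 0.

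Il6st, the shared chain gp130, was highest in microglia-like cells at 68.4, 58.3, 48.4 and 55.6 CPM, a range that did not overlap that of any other named cluster. Dendritic cell-like cells held 22.2, 18.0, 33.5 and 34.1 CPM and T cell-like cells 22.0, 10.3, 8.88 and 8.74 CPM. In the neutrophil-like clusters it was close to absent from the counts. Cluster 0 held 0.292 to 2.34 CPM, and in cluster 3 only 1 UMI was found, in the young library of day 10. The other libraries of cluster 3 had none in 235, 258 and 172 cells, which allows shares of up to 1.28%, 1.16% and 1.74%.

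The ratio of the chains therefore differed between cell types, and since it is taken within a cluster it can be compared between clusters. Over all libraries there were 126 Il6ra UMIs per Il6st UMI in cluster 0 (3663 and 29 UMIs) and 50 in cluster 6 (350 and 7 UMIs), and cluster 3 held 557 Il6ra UMIs beside that single Il6st UMI. The ratio was 3.77 in cluster 1, 3.60 in cluster 5, 1.91 in dendritic cell-like, 1.89 in microglia-like and 1.08 in T cell-like cells. Both chains were seen in the same cell in 335 of 1344 microglia-like cells, 792 of 9645 cells of cluster 1 and 11 of 9257 cells of cluster 0. At these depths a cell without a UMI of a chain cannot be said to lack it.

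**Figure D2:**
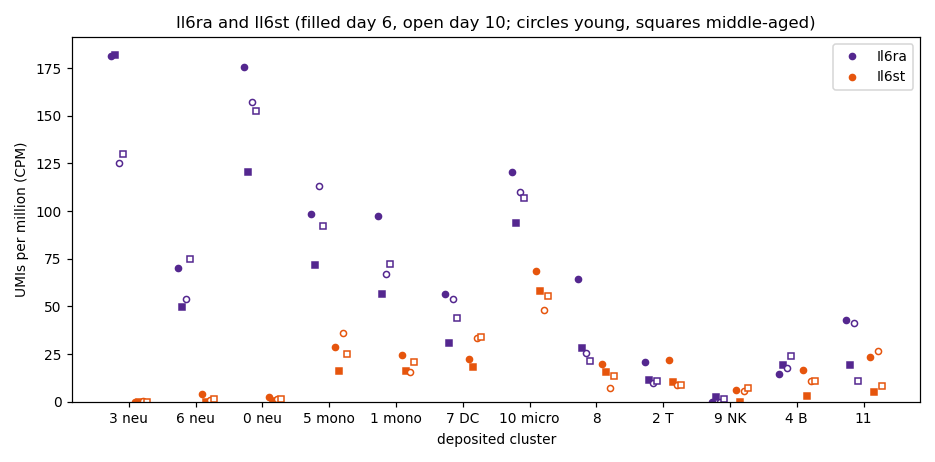
Level of Il6ra and of Il6st (vertical axis, CPM) in 12 deposited clusters (horizontal axis), 1 point per library, with filled points for day 6, open points for day 10, circles for young and squares for middle-aged recipients. Il6ra was 121 to 182 CPM in clusters 3 and 0 and Il6st was at most 2.34 CPM there, whereas microglia-like cells held both.

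Stat3, the transcription factor activated below gp130, was present in every cluster. Its level was 535, 447, 225 and 382 CPM in cluster 3, 341, 251, 247 and 250 CPM in cluster 0, and 303, 349, 167 and 159 CPM in NK cell-like cells. Microglia-like cells held 204, 167, 147 and 126 CPM, T cell-like cells 139, 148, 108 and 123 CPM, and B cell-like cells 76.1, 64.3, 110 and 132 CPM. Every cluster's range overlapped that of the next in order. In B cell-like cells both libraries of day 10 were the higher ones, unlike the clusters just named.

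Socs3, the feedback inhibitor that STAT3 induces, had its highest mean level in cluster 3, where it also varied widely between libraries. In cluster 3 it was 2405, 1644, 82.0 and 634 CPM, so the young library of day 10 stood far below the others, and a UMI was found in 88.9%, 81.4%, 20.0% and 54.7% of its cells. After thinning, which kept 135 of 235, 164 of 258, 487 of 514 and 161 of 172 cells, the shares were 88.9%, 79.3%, 10.9% and 47.8%. The neutrophil markers differed as well. In the young library of day 10, where Socs3 was lowest, 8 of the 10 were at their highest. Among them were the granule genes Camp (655 CPM, at most 7 in the others), Ngp (2708 CPM, at most 81) and Mmp8 (4489 CPM, at most 2152) and also Retnlg (51064 CPM, at most 25216). The other 2, the receptors Csf3r (569 CPM, 1152 to 1964 in the others) and Cxcr2 (978 CPM, 1496 to 2318 in the others), were at their lowest. The part of this difference in the Socs3 level was not tested. Elsewhere Socs3 was 1116, 839, 732 and 680 CPM in cluster 0, 692, 789, 476 and 415 CPM in cluster 5, and 578, 588, 497 and 453 CPM in microglia-like cells. Both libraries of day 6 were above both of day 10 in each of these clusters, but in cluster 5 not once cells with UMIs of another lineage were left out (781, 863, 747 and 839 CPM). T cell-like cells followed the same order at 116, 117, 54.7 and 70.5 CPM, whereas B cell-like cells ran the other way at 28.0, 41.8, 61.5 and 101 CPM.

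The days were compared first. Between day 6 and day 10, which of the members changed? UMIs summed by cluster and library were tested with edgeR's quasi-likelihood test with age and day in the model, over all genes with at least 10 counts in 2 libraries, and called at an adjusted p (Benjamini-Hochberg) below 0.05. This uses 2 libraries per day and leaves 1 residual degree of freedom, and whether a change differs between the ages cannot be tested. With 1 library left out, the model held day (or age) alone, and the day left with a single library was assumed to vary like the other. With all 4 libraries and day alone in the model, each member called for day in the full model was still called. Clusters 0, 1, 2, 8 and 10 were tested. On day 10, Osm was lower in 4 of these 5 clusters, and so was Socs3. Il6 fell in cluster 1, the only one of the 5 where it had enough counts, and no member rose in any of the 5.

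In the neutrophil-like cluster 0, 4 of 5 members tested were lower on day 10. Of all genes in that cluster 54.4% were called in either direction, and 2613 of 9593 were called lower. Osm fell by 2.46 on the log2 scale (adjusted p = 3.13e-08) and Socs3 by 1.21 (adjusted p = 2.94e-06). Stat3 fell by 0.99 (adjusted p = 2.86e-05) and Il6ra by 0.67 (adjusted p = 0.00106). The scaling matters here, because the median log2 ratio of all genes on total UMIs was 0.58 in young and 0.68 in middle-aged mice, which TMM scaling takes out. With total UMIs as the scale Osm (-1.70, adjusted p = 8.31e-09) and Socs3 (-0.45, adjusted p = 0.00401) were still called. Stat3 (-0.23, adjusted p = 0.132) was not, and Il6ra turned to 0.094 (adjusted p = 0.552). The same median lay between -0.28 and 0.23 in the other clusters shown. The log2 ratio of day 10 over day 6 for Osm, on total UMIs, was -1.39 [-1.48 to -1.31] in young and -2.02 [-2.11 to -1.93] in middle-aged mice.

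In the monocyte/macrophage-like cluster 1, 4 of 7 members were lower, with 29.9% of all genes called in either direction (1852 of 12222 lower). Osm fell by 1.93 (adjusted p = 3.04e-05) and Il6 by 1.72 (adjusted p = 2.34e-05). Stat3 fell by 0.74 (adjusted p = 0.0136) and Socs3 by 0.73 (adjusted p = 0.0203). With either library of day 10 left out, Il6 and Osm were still called, but Stat3 (adjusted p = 0.145 without the young and 0.127 without the middle-aged library) and Socs3 (0.152 and 0.177) were not. On total UMIs, Socs3 (-0.56, adjusted p = 0.0515) was not called either. For Il6 the log2 ratio was -1.47 [-1.65 to -1.29] in young and -1.63 [-1.80 to -1.47] in middle-aged mice, and for Osm -2.10 [-2.17 to -2.04] and -1.42 [-1.48 to -1.36]. Summed monocyte/macrophage markers of this cluster were also lower on day 10 (13664, 14662, 8029 and 8055 CPM), and their part in these results was not tested.

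Cluster 5, also monocyte/macrophage-like, was described without a test. Osm had a log2 ratio of day 10 over day 6 of -1.24 in young and -1.17 in middle-aged mice. Its Il6 log2 ratios were -0.64 [-0.89 to -0.40] and -1.69 [-2.09 to -1.30]. Summed T cell markers in this cluster were 339, 455, 1053 and 1491 CPM. Leaving out cells with UMIs of another lineage kept 587 of 817, 317 of 641, 103 of 409 and 115 of 344 cells, so most cells of day 10 were dropped. Il6 was then 73.6, 56.6, 74.4 and 44.7 CPM, and the young libraries of the 2 days were level. Osm was then 662, 599, 397 and 557 CPM.

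In T cell-like cells 2 of 6 members were lower, with 7.22% of all genes called in either direction (369 of 11362 lower). They were Osm (-1.10, adjusted p = 0.00425) and Socs3 (-0.80, adjusted p = 0.00791). Both calls were lost without the young library of day 10 (adjusted p = 0.194 and 0.186) and without the middle-aged one (0.137 and 0.0511), and DESeq2 did not call Osm (adjusted p = 0.0838). Osm in T cell-like cells is also near the background given above. The monocyte/macrophage marker sum in these cells was 1343 and 1161 CPM on day 6 and 672 and 572 CPM on day 10, and its part in the Osm result was not tested. Leaving out cells with another lineage's UMIs gave Osm levels of 14.99, 27.4, 8.01 and 8.94 CPM. Lif went in opposite directions with age, with a log2 ratio of day 10 over day 6 of 1.15 [0.76 to 1.56] in young and -1.30 [-1.57 to -1.03] in middle-aged mice. Over both ages it did not pass (log2 fold change -0.077, adjusted p = 0.957). Without the middle-aged library of day 6 its log2 fold change was 1.05 and without the young one -0.95, both called, and each of these sets 1 library of day 6 against day 10, much as the single ratios do.

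In cluster 8, 3 of 5 members were lower, with 13.4% of all genes called in either direction (578 of 8371 lower). Osm fell by 1.88 (adjusted p = 4.56e-05), Socs3 by 1.02 (adjusted p = 0.000976) and Stat3 by 0.65 (adjusted p = 0.0459). DESeq2 called Osm (adjusted p = 0.00217) but not Socs3 (0.0840) or Stat3 (0.688). The Stat3 call was also lost without the young library of day 10 (adjusted p = 0.362), the middle-aged library of day 6 (0.0745) or that of day 10 (0.159). Without cells holding another lineage's UMIs the Osm level was 19.6, 31.9, 11.01 and 4.91 CPM, in place of 106, 187, 37.1 and 28.0 CPM over all cells, and neutrophil markers in the cluster were 7035, 10328, 8938 and 3621 CPM. In microglia-like cells of cluster 10 none of 5 members was called, with 6.64% of all genes called. None had an unadjusted p below 0.05, and DESeq2 called none. For Osm the log2 ratio there was -0.0019 [-0.13 to 0.13] in young and -0.44 [-0.58 to -0.30] in middle-aged mice. Summed neutrophil markers in this cluster were 4537, 1322, 5990 and 3712 CPM. Without cells holding another lineage's UMIs its Osm level was 272, 319, 290 and 258 CPM.

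**Figure D3:**
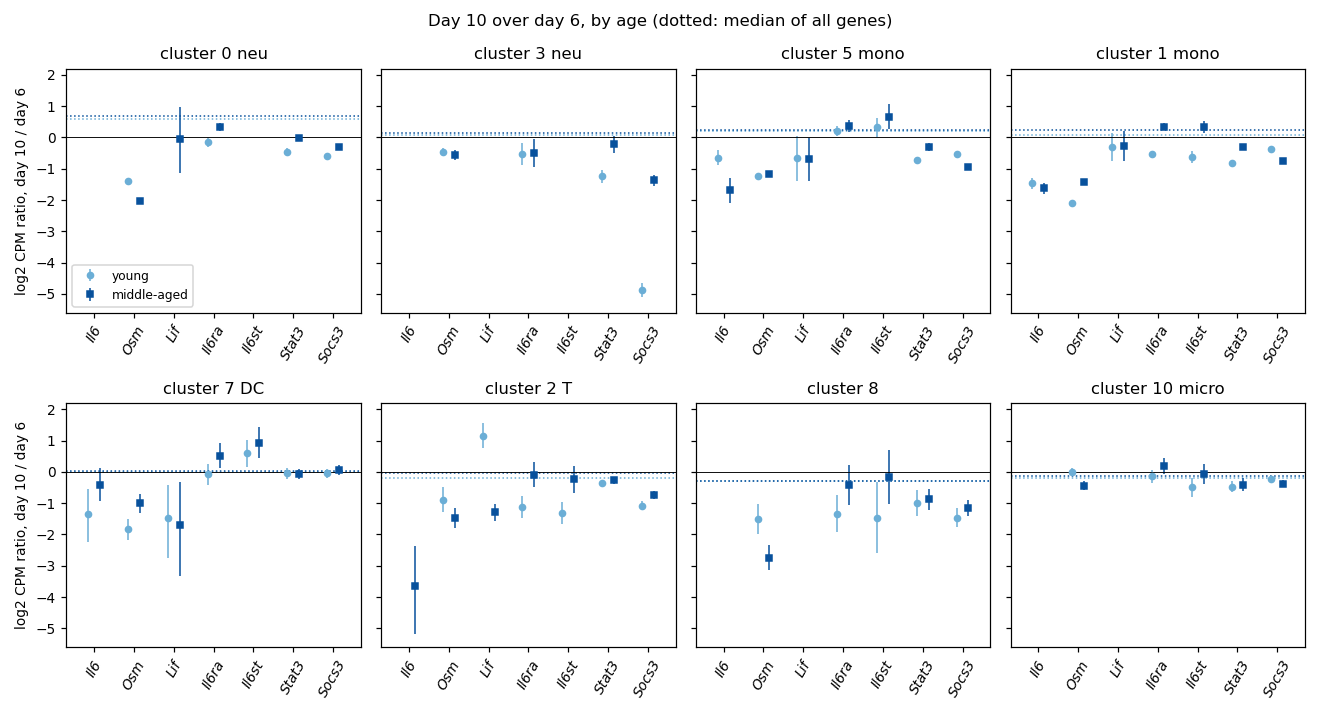
Log2 ratio of CPM, day 10 over day 6 (vertical axis), of each member (horizontal axis) in 8 clusters, for young and middle-aged recipients, with bars for the exact conditional binomial 95% interval (counting error only) and dotted lines for the median of all genes. Osm lay below 0 in both ages in clusters 0, 3, 5, 1, 7, 2 and 8, Lif in T cell-like cells lay at 1.15 in young and -1.30 in middle-aged mice, and Socs3 in cluster 3 at -4.87 and -1.37.

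Clusters 3 and 7 were described without a test. In cluster 3, Osm moved less than in cluster 0, with log2 ratios of -0.45 in young and -0.56 in middle-aged mice. Socs3 in cluster 3 had ratios of -4.87 [-5.11 to -4.65] and -1.37 [-1.55 to -1.20]. In dendritic cell-like cells Osm had ratios of -1.84 and -1.004 and Il6st of 0.59 and 0.92, so the shared receptor chain was higher on day 10 in both ages there. Socs3 in these cells stayed near 0 (-0.04 and 0.06). In T cell-like cells the ratios of Il6ra (-1.13 and -0.09) and of Il6st (-1.31 and -0.24) were far below 0 in young mice only, and whether the ages differ was not tested.

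The question of the study was the age of the recipient. No member was called for age in any of the 5 clusters tested. The tested members numbered 5, 7, 6, 5 and 5 in clusters 0, 1, 2, 8 and 10. Of all genes, 0.208%, 0.0982%, 0.0616%, 0.0956% and 0.142% were called there, and DESeq2 called no member either. At an unadjusted p below 0.05 there were 1, 0, 2, 1 and 0 members. They were Osm in cluster 0 (log2 fold change of middle-aged over young -0.44, adjusted p = 0.403), Osm (0.57, adjusted p = 1.00) and Il6st (-0.54, adjusted p = 1.00) in T cell-like cells, and Il6ra in cluster 8 (-0.67, adjusted p = 1.00). The model gives 1 effect over both days, and the single days are given next as values with no test.

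On day 6, T cell-like cells of middle-aged recipients held more Lif than those of young ones, with a log2 ratio of 1.93 [1.53 to 2.35], and on day 10 less (-0.52 [-0.78 to -0.26]). Leaving out the 10 cells with the most Lif of each library gave 2.75 and -0.46. Osm in the same cells was higher on day 6 as well (0.86 [0.51 to 1.22]), within the low range given above. The receptor chains in these cells went the other way on day 6, at -0.89 for Il6ra and -1.09 for Il6st, with 0.15 and -0.02 on day 10. Il6 in T cell-like cells had a ratio of 4.09 [2.12 to 7.19] on day 6, but its 33 UMIs in the middle-aged library came from 6 cells.

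Il6ra was also lower in middle-aged than in young recipients on day 6 in 6 further clusters, but not in cluster 3 (0.0070 [-0.39 to 0.41]) or in B cell-like cells (0.41 [-0.86 to 1.66]). The unnamed cluster 11 is not among the 6, and its Il6ra was also highest in the young library of day 6 (42.9 CPM). The log2 ratios were -0.54 in cluster 0, -0.78 in cluster 1, -0.46 in cluster 5, -0.89 in dendritic cell-like cells, -1.18 in cluster 8 and -0.36 [-0.60 to -0.12] in microglia-like cells. On day 10 they were -0.04, 0.11, -0.30, -0.30, -0.27 and -0.04. These 6 clusters come from the same pair of libraries on each day and are not replicates of the age.

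The ligands of myeloid cells differed with age by cluster and day. Il6 in cluster 1 had ratios of 0.23 [0.11 to 0.35] on day 6 and 0.07 [-0.14 to 0.28] on day 10. In cluster 5 it had -0.45 on day 6 and -1.50 [-1.93 to -1.08] on day 10 (189 and 65 UMIs on day 10), and in dendritic cell-like cells 0.35 and 1.29 [0.42 to 2.25] (14 and 55 UMIs on day 10). So on day 10 these 2 clusters went opposite ways. Osm in cluster 0 had -0.19 on day 6 and -0.82 [-0.93 to -0.70] on day 10, and in cluster 1 it had -0.55 and 0.14. In dendritic cell-like cells Osm had -0.88 [-1.07 to -0.68] and -0.046, and in cluster 8 it had 0.82 [0.43 to 1.22] and -0.41 [-0.87 to 0.06]. Leaving out cells with another lineage's UMIs kept only 10 of 69 (young) and 28 of 243 (middle-aged) Osm UMIs of cluster 8 on day 6. In microglia-like cells Osm was 0.21 [0.07 to 0.34] on day 6 and -0.23 [-0.36 to -0.09] on day 10, and with the mean of log-normalized values the day 6 ratio was 1.04. Socs3 had a ratio of 2.95 in cluster 3 on day 10, where the young library is the one whose neutrophil markers were described above, and -0.55 on day 6. Its ratios in cluster 1 were 0.32 (day 6) and -0.05 (day 10), and those in cluster 5 were 0.19 and -0.20.

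**Figure D4:**
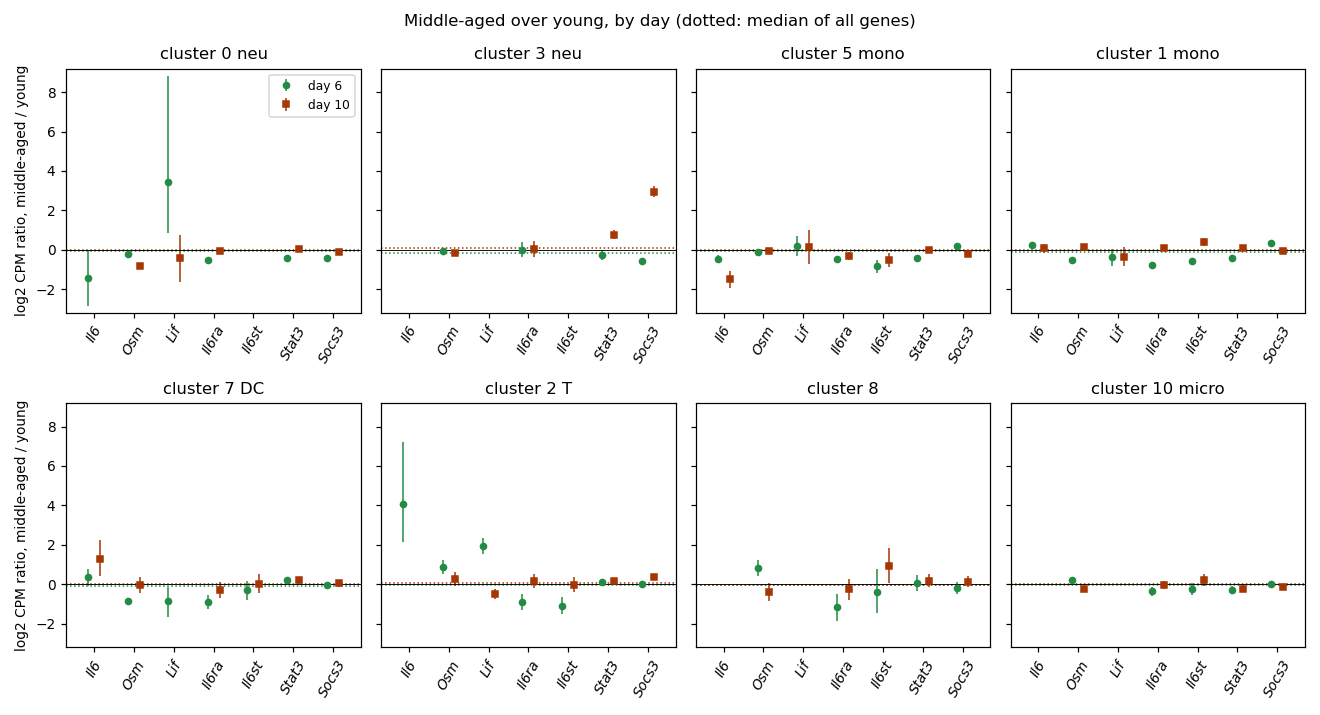
Log2 ratio of CPM, middle-aged over young (vertical axis), of each member (horizontal axis) in 8 clusters on day 6 and day 10, with bars for the exact conditional binomial 95% interval (counting error only) and dotted lines for the median of all genes. Lif in T cell-like cells lay at 1.93 on day 6 and -0.52 on day 10, Il6ra in cluster 1 at -0.78 and 0.11, and Socs3 in cluster 3 at -0.55 and 2.95.

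Other genes of the pathway were counted from 5 lists. In the day comparison of cluster 0, inhibitors fell in 3 of 4 tested, with Cish at -2.90 (adjusted p = 3.10e-09), Socs1 at -2.00 (adjusted p = 2.62e-08) and Ptpn2 at -0.94. Both Cish and Socs1 are inhibitors of JAK and STAT signalling from the family of Socs3. Genes known to respond to STAT3 fell in 11 of 13 tested, with a median of -1.06 beside 0.079 for all genes. Il1rn, the IL-1 receptor antagonist, was the furthest at -2.60 (adjusted p = 5.85e-09), and its level was 2935, 3496, 866 and 925 CPM. Of the signalling genes 4 of 6 fell (median -0.75), among them the kinase Jak2 at -1.08 (adjusted p = 6.12e-06). In this cluster 54.4% of all genes were called in either direction, and the counts depend on the scaling. On total UMIs 6 of the 13 response genes were called lower and 1 higher, 2 of the 4 inhibitors lower and 1 higher, and 1 of the 6 signalling genes lower (Jak2) and 2 higher. On that scale 72.6% of all genes were called, and their median log2 fold change was 0.84. Cish, Socs1, Il1rn and Jak2 were called lower with both scalings, and Ptpn2 was not.

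In cluster 1 the inhibitors fell in 3 of 5 (Socs1 -2.20, Cish -1.96), STAT3 response genes in 9 of 14 with a median of -0.82 beside 0.027 for all genes, and signalling genes in 2 of 6, where 29.9% of all genes were called. On total UMIs the counts lower were 3 of 5, 9 of 14 and 1 of 6, where 30.6% of all genes were called. Il27, a ligand subunit that signals through gp130, fell by 2.27 (adjusted p = 8.24e-06) from 42.6 and 44.7 CPM on day 6 to 12.4 and 8.30 CPM on day 10. In T cell-like cells, where 7.22% of all genes were called, only 2 of the 7 listed ligands had enough counts to be tested, and both went up. Ebi3, the partner of Il27, rose by 1.84 (adjusted p = 0.000198) and Clcf1 by 0.73 (adjusted p = 0.0436, not called on total UMIs). Il27 itself was at most 0.874 CPM in these cells. Of the STAT3 response genes there, Bcl6 (1.85, adjusted p = 3.72e-05) and Junb (0.81) rose and 4 of the 15 fell, Il1rn among them (-1.79). Il1rn held only 11.9, 28.8, 5.41 and 4.85 CPM in these cells, far below its level in cluster 0 given above. The part of other cells' transcripts in its fall was not tested. In cluster 8, inhibitors fell in 2 of 4 and response genes in 6 of 13, where 13.4% of all genes were called. Adam17, which sheds Il6ra from the cell surface, rose there (0.79, not called on total UMIs). In microglia-like cells, where no member was called, Socs1 fell (-0.94, adjusted p = 0.0306), as did Il1rn (-1.65, at 176, 275, 64.3 and 62.1 CPM) and Myc (-1.48), and Lcn2 rose (1.01). Lcn2 is also a neutrophil gene: its level there was 106, 63.0, 198 and 110 CPM beside the neutrophil marker sums of this cluster given above, and their part in its rise was not tested. No gene of the 5 lists was called for age in any of the 5 clusters.

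Of the receptor chains that Osm and Lif use beside gp130, Lifr was highest in microglia-like cells (76.2, 40.7, 41.8 and 38.3 CPM), and the whole table held only 2 UMIs of Osmr. Cntfr had none, and Il11 and Ctf1 had 18 and 12 UMIs. Il27ra was highest in T cell-like cells, at 45.5, 39.6, 44.5 and 50.8 CPM.

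**Figure D5:**
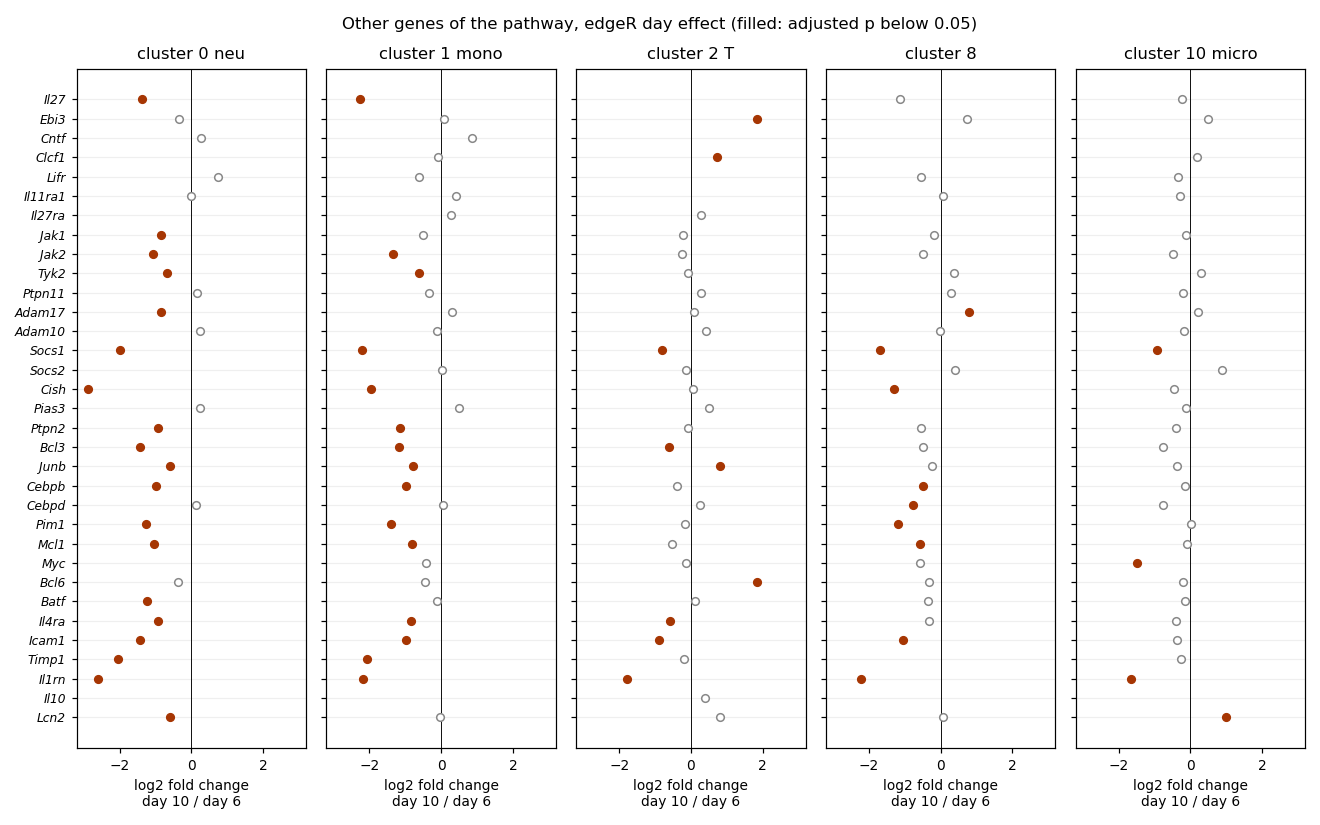
Log2 fold change of day 10 over day 6 (horizontal axis) from edgeR with TMM scaling for the other genes of the pathway (vertical axis) in 5 clusters, filled where the adjusted p was below 0.05. Il1rn and Socs1 lay left of 0 and were filled in all 5 clusters, and Ebi3 and Bcl6 were filled right of 0 in T cell-like cells only among these. The Il1rn level in T cell-like cells was at most 28.8 CPM.

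The bulk libraries of naive microglia show the family without disease, as 1 library per age, of 79373420 and 76293436 counted reads, with no test. In bulk, fewer cells of a type and less RNA per cell cannot be told apart. Middle-aged over young, Lif had a log2 ratio of 1.73 [1.36 to 2.12] (77 and 246 reads), Osm 1.16 [1.10 to 1.22] (3181 and 6838) and Il6 0.69 [0.50 to 0.89] (367 and 570), so all 3 ligands had more reads per total in the middle-aged library. Socs3 was higher too, at 0.62 [0.59 to 0.64] (19481 and 28679 reads). Il6ra (0.04) and Stat3 (-0.04) were nearly level, and Il6st was lower at -0.35 [-0.37 to -0.34] (81182 and 61099 reads). The median over 14820 genes was -0.0073. Of the 15 STAT3 response genes, 13 were higher and 2 lower, with a median of 0.25. Osmr, which was hardly seen in the single cells, had 604 and 135 reads, a log2 ratio of -2.10 [-2.38 to -1.83]. The endothelial markers moved with it: all 9 were lower in the middle-aged library, their median log2 ratio was -2.35 and their summed level went from 816 to 193 CPM, and their part in the Osmr and Il6st values was not tested. Summed microglial markers were 29513 and 27486 CPM, neutrophil markers 688 and 823 CPM, and monocyte/macrophage markers 193 and 66.0 CPM.

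The genes whose levels ran most like each member over 52 sums of a cluster in a library were taken by Pearson's r on log2(CPM + 10), among 9439 genes. The sums share libraries and cell types and are not independent, so r is given as a description with no p. For Il6 they were Papss2 (0.859), Vcan (0.847) and Nrg1 (0.847), and for Osm they were Tnfrsf1a (0.928), Xdh (0.923) and Trib1 (0.921). For Lif they were Lgals7 (0.780), Cd8a (0.750) and Sit1 (0.750). Il6ra ran with Zfp36 (0.922), Rbm47 (0.895) and Slc6a6 (0.883), and Il6st with Snx1 (0.870), Tep1 (0.870) and Sdad1 (0.860). Stat3 ran with Stk40 (0.882), Arih2 (0.869) and Otud5 (0.860), and Socs3 with Plekho2 (0.916), Picalm (0.902) and Atp7a (0.901). Among the members themselves, Il6ra with Osm (0.819), Il6ra with Socs3 (0.801) and Osm with Socs3 (0.743) were the closest pairs, whereas r was 0.188 for Il6 with Osm and 0.092 for Il6ra with Il6st.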

How the data were processed

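CD45+ spinal cord cells were counted in 4 libraries of 10x Genomics v3 chemistry. According to the methods, reads were aligned and counted with CellRanger on mm10, and cells were filtered (at least 200 genes, under 10% mitochondrial reads) and clustered in Seurat. The table the authors deposited holds raw UMI counts per gene and cell and a cluster number per cell. The deposited bulk table holds raw read counts per gene, made unstranded with featureCounts and Ensembl release 99.

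Counts were summed by cluster and library and divided by the cluster's total. No p was taken from single cells. Changes with age and day were tested with edgeR 4.0.16 in R 4.3.3 (limma 3.58.1, TMM, genes with 10 counts in 2 libraries, adjusted p below 0.05 over all genes), with DESeq2 1.42.0 as an alternative. The p-values measure only the spread between these 4 libraries. A ratio needed 20 UMIs in both libraries together and 50 cells in each. Shares of cells were also computed after thinning to 2000 UMIs per cell, with cells of fewer UMIs left out. The cells left out differed by cluster and library. In the middle-aged library of day 6, 2438 of 3880 cells of cluster 0 and 2740 of 2760 of cluster 1 were kept. Doublets were not called. One alternative dropped each cell that held at least 2 UMIs from markers of a different lineage (at least 5 for neutrophil markers). Other alternatives changed the scaling, the total, the minimum depth, the filter and the tool, or left out each library. Python 3.11.15, numpy 2.4.6, scipy 1.17.1, pandas 2.3.3 and matplotlib 3.10.9 were used for the rest. Ratios and the edgeR test were tested on simulated data. The members, the 5 lists and the markers were chosen with earlier results of these data known. Genes named from a list were at most 4, those with the most UMIs or a call. The 3 genes most like each member came from genes with 1000 UMIs in all. Scaling the edgeR test by total UMIs was added after seeing the data. Some genes of the lists are not reported here and were left out of the counts.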

Additional observations from a re-analysis of the deposited data

Results flagged for a closer look

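In 9 of 45 pairs of a member and a cluster, intervals of the 2 days' age ratios lay on opposite sides of no change. These intervals cover counting error only, and both libraries of a day gave 1 ratio. Pairs with opposite signs but an interval that reached no change, such as Osm in cluster 8, were not counted. The differences between the days in the 9 pairs were not tested. Each value is the day 6 log2 ratio (middle-aged over young) minus the day 10 one. Lif in T cell-like cells differed by 2.44 (1.93 on day 6 and -0.52 on day 10). In the monocyte/macrophage-like cluster 1 the differences were -0.69 for Osm (-0.55 and 0.14), -0.89 for Il6ra (-0.78 and 0.11), -0.97 for Il6st (-0.58 and 0.38) and -0.51 for Stat3 (-0.42 and 0.09). In the neutrophil-like cluster 3 they were -3.50 for Socs3 (-0.55 and 2.95) and -1.02 for Stat3 (-0.26 and 0.76), where 8 of 10 neutrophil markers were highest in the young library of day 10. Osm in microglia-like cells differed by 0.44 (0.21 and -0.23), and with the mean of log-normalized values its day 6 ratio was 1.04. Socs3 in cluster 5 differed by 0.39 (0.19 and -0.20), and its day 10 ratio turned to 0.17 without cells holding another lineage's UMIs.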

How the results depend on the processing

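No paired analysis was possible because each age and day had 1 library. No member was called for age under any alternative tried, and the count with each library left out was 0 in all 5 clusters. For day, the 4 calls in cluster 0 became 2 on total UMIs, where 72.6% of all genes were called in place of 54.4%. The 2 calls in T cell-like cells became 1 with DESeq2, which called 379 of 11362 genes there in place of 820. With no filter they became 4. The 3 calls in cluster 8 became 1 with DESeq2, which called 244 of 8371 genes there in place of 1122. The share of all genes called was not taken with no filter or with a library left out. With each library left out in turn the calls ran from 4 to 5 in cluster 0, 2 to 6 in cluster 1, 0 to 5 in T cell-like cells, 2 to 3 in cluster 8 and 0 to 0 in microglia-like cells. The highest counts in clusters 0, 1 and T cell-like cells came without the middle-aged library of day 6, where Il6ra and Il6st were also called lower in cluster 1 and T cell-like cells, and Lif higher in cluster 0. The lowest came without a library of day 10 in cluster 1 and T cell-like cells. With 1 library left out the model held a single term, and 1 day is seen in 1 age only. The cause of these moves was not tested. Mean levels over the libraries moved from 19.7 to 31.0 CPM for Lif in T cell-like cells and from 57.7 to 69.5 CPM for Il6st in microglia-like cells when mitochondrial and ribosomal genes were left out of the total, which makes the total smaller. Of 1104 alternative values of the ratios 918 moved less than their interval, 176 more, and 10 changed the sign of a ratio whose interval left out 0. Sign changes of ratios whose interval held 0 were not counted apart. Without cells holding another lineage's UMIs, sign changes of the counted kind in cluster 5 were Il6 in young mice with day (0.016), Lif (1.89) and Stat3 (0.18) in middle-aged mice with day, and Il6ra (0.026) and Socs3 (0.17) with age on day 10. With the mean of log-normalized values they were Lif in middle-aged mice with day (0.013) and Socs3 with age on day 10 (0.059), both in cluster 5. With TMM scaling they were Il6ra in middle-aged mice with day in cluster 0 (-0.43), and Il6ra (-0.13) and Il6st (-0.0011) in young mice with day in cluster 5. In the test, Il6ra in cluster 0 went to 0.094 on total UMIs. All 21 alternative values of the bulk ratios stayed within their intervals. Of the 7 members, Lif and Il6 were found in the fewest cells (792 and 1942 of 38057), and Lif and Il6st had the fewest UMIs (1634 and 4391). How far depth limits each member was not compared.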
